A study of Homo sapiens with 20 samples.

Results

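The genes described here are 46 type I interferon-stimulated genes, chosen as a named list (47 names, of which DDX58 is the older symbol of RIGI) and matched by symbol to the transcript clusters of the array. Every one of the 46 was measured, each by 1 cluster, among 17709 clusters that carried a single gene symbol. RNA was taken from 3 cultured tumour lines, each in a parental state sensitive to the CHK1 inhibitor prexasertib (CHK1 is a kinase of the DNA damage checkpoint) and in a state of acquired resistance. NCI-H520 is a line of squamous lung carcinoma whose resistant partner was raised in culture by stepwise increase of the drug (3 parental and 3 resistant arrays). SJCRH30 is an alveolar rhabdomyosarcoma line (3 parental and 3 resistant arrays). Its parental culture was grown out of a xenograft tumour from a mouse given vehicle. Its resistant culture came from a tumour that regrew after dosing had stopped and was not inhibited when dosing resumed. Rh41, a paediatric alveolar rhabdomyosarcoma line, was escalated as separate cultures (3 parental and 5 resistant arrays). NCI-H520 and SJCRH30 each give 1 resistant line, so their arrays are cultures of that line and not separate selections. The study reports that the established SJCRH30 tumour lines were sub-cultured with the drug. No source used here says whether prexasertib was in the medium at RNA harvest, and an effect of the drug and an effect of resistance cannot be told apart.

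Type I interferons bind the receptor pair IFNAR1 and IFNAR2, the kinases JAK1 and TYK2 become active, and a transcription factor complex that includes IRF9 binds a response element in the promoters of target genes. The targets include proteins that sense, bind or destroy foreign RNA, proteins that block virus entry or release, and feedback regulators of the pathway itself. Tumour cells can express these genes without infection, for example when their own DNA or RNA in the cytosol reaches the sensors cGAS, RIG-I or MDA5.

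All values are log2 values of the robust multi-array average (RMA) as deposited, and a change is the resistant mean minus the parental mean of a line with its moderated standard error (SE). A gene is said to have risen or fallen when limma gave an adjusted p under 0.05 over all clusters and the change was more than 1.5-fold. The Rh41 values lie on a narrower scale than those of the other lines (SD over all values 1.99 against 2.99, highest value 13.1 against 19.4). The size of a change in Rh41 therefore cannot be set beside a size in another line on the deposited scale, while its direction can. The 1.5-fold threshold was applied on these unlike scales, and the number of resistant arrays differs too. Counts and patterns of calls are thus not on equal terms between Rh41 and the other lines. Arrays of a group correlated at 0.983 or more in Rh41, 0.988 or more in NCI-H520 and 0.989 or more in SJCRH30. Of 9 muscle lineage markers, 2 were under 5 in both states of each rhabdomyosarcoma line, and 5 in NCI-H520. In NCI-H520, 4 of 5 measured squamous markers were under 5 as well, the exception being SOX2.

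Resistant Rh41 cultures carried higher levels of most of the interferon-stimulated genes, whereas resistant NCI-H520 and SJCRH30 showed small sets of rises and falls. In Rh41, 30 of 46 rose and 0 fell by limma (1 was lower at an unadjusted p under 0.05), beside 5.69% of all clusters that rose and 3.08% that fell. In NCI-H520, 6 rose and 4 fell, where 10.1% of all clusters rose and 9.9% fell. In SJCRH30, 5 rose and 5 fell, and the shares over all clusters were 9.42% and 9.28%. The shares of the 46 genes that rose in NCI-H520 and SJCRH30 (13.0% and 10.9%) thus lay close to those of all clusters, and that in Rh41 (65.2%) did not. The median change of the list was 1.16 in Rh41, 0.26 in NCI-H520 and 0.03 in SJCRH30, beside medians over all clusters of -0.035, 0.007 and 0.007.

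**Figure D1:**
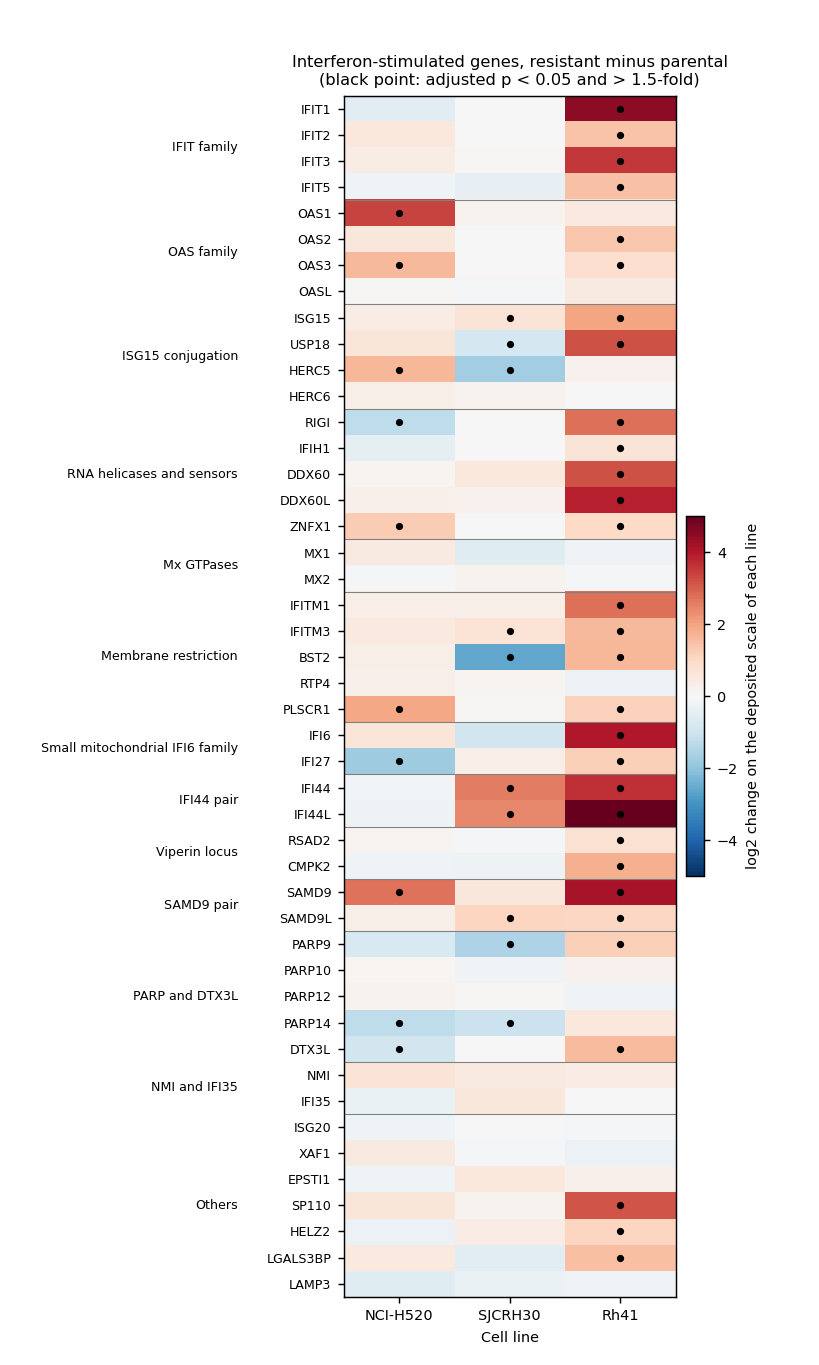
Colour gives the log2 change (resistant minus parental, deposited scale of each line) of the 46 genes in rows, grouped by role, in the 3 lines in columns, and a black point marks a gene past the threshold. The Rh41 column holds 30 points, all in red cells, and the other columns hold 10 points each in both colours.

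Of the 29 clusters on the whole array that rose more than 8-fold in resistant Rh41, 10 belonged to this list, and IFI44L had the largest rise of all 17709. The elevation was present in each of the 5 resistant cultures. The median deviation of the 46 genes from their parental means was 1.01, 1.09, 1.22, 1.07 and 1.49 in resistant cultures 1 to 5, against -0.05 to 0.06 in the parental cultures. Culture 5 was the highest, and all 5 lay above the parental range. For all 30 genes that rose, every resistant array lay above every parental array. They had been selected by the threshold, so this describes them and adds no support. The states were also apart for 16 of the 46 genes in NCI-H520 and for 16 in SJCRH30. The share of all clusters with states apart was not counted, so these counts are not read as a trait of the list. Starting levels were often low: 15 of the 30 began from a parental mean under 5 on the deposited scale, and 3 of these stayed under 5 in the resistant state.

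The promoters of the list were compared with the response element. It was searched as GAAANNGAAA on either strand in the RefSeq window from 250 bases before to 50 bases after a transcript start (build GRCh38.p14). Windows were found for 38 of the 46 genes, and 29 of these (76.3%) held a match, beside 4.13% of 14250 tested genes with a window and 3.57% of all 35116 windows. At least 2 matches lay in a single window for 16 of the 38, compared with 0.337% of tested genes. Of the genes that rose in Rh41, 21 of 26 held a match, and of the others 8 of 12 did. The stretches printed here show it in the genes with the largest rise in Rh41 among those of their group that hold a match, and in RTP4 and HERC5, which were chosen after their values were seen because they hold the element and did not pass the threshold in Rh41. Capitals mark the matches, read 5′ to 3′ on the strand of the gene, so that TTTCNNTTTC is the same element on the other strand.
IFI44L: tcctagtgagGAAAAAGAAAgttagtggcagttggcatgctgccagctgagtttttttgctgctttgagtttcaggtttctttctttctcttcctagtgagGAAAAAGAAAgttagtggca
IFIT1: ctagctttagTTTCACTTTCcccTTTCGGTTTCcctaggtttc
SAMD9: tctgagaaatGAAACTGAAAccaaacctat
IFI6: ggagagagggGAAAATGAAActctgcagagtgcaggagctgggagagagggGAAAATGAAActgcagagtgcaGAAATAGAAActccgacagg
DDX60L: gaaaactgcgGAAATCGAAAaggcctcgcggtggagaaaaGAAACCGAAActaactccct
IFITM1: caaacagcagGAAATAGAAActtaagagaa
ISG15: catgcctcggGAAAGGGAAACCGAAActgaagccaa
DTX3L: ccagggaagcGAAACTGAAActttgcgccc
RTP4: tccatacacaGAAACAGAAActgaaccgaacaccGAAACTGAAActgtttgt
HERC5: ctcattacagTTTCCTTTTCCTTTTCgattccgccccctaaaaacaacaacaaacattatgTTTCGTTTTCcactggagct

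These stretches lie upstream of the transcript start except the last 14 bases of that of DTX3L, which begin at the start itself. They are chr1:78620274-78620394 for IFI44L, chr10:89392497-89392539 for IFIT1, chr7:93118096-93118125 for SAMD9, chr1:27672266-27672358 for IFI6, chr4:168480523-168480582 for DDX60L, chr11:313990-314019 for IFITM1, chr1:1013374-1013409 for ISG15, chr3:122564322-122564351 for DTX3L, chr3:187368333-187368384 for RTP4 and chr4:88456984-88457064 for HERC5, with SAMD9, IFI6 and DDX60L on the minus strand. IFI44L and IFI6 each repeat the element inside a longer repeated stretch. In ISG15 and HERC5 neighbouring matches overlap by 4 bases. IFITM1 holds a further match at chr11:314034-314043, which crosses the transcript start and lies outside the stretch printed. A match describes letters only; binding was not measured.

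**Figure D2:**
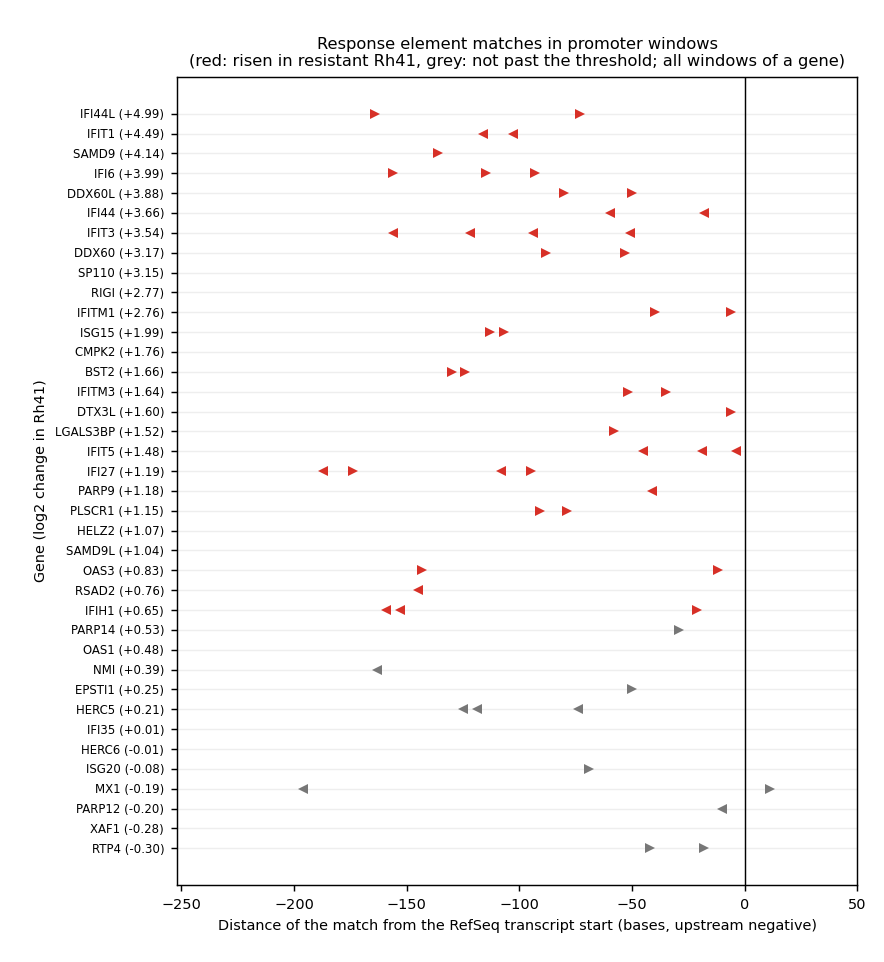
Each row is a gene with a promoter window, ordered by its log2 change in Rh41, and each triangle is a match at its distance in bases from the RefSeq start, pointing right for the strand of the gene and left for the other. Matches occur in rows at the top (risen, red) and at the bottom (not past the threshold, grey), nearly all upstream of the start.

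The IFI44 pair, a neighbouring couple of interferon-induced genes that restrict virus replication by ways still debated, rose in both rhabdomyosarcoma lines. IFI44L stood at 2.93, 3.85 and 3.48 in parental Rh41 and at 7.93, 8.20, 8.33, 8.55 and 9.03 in resistant Rh41, a rise of 4.99 ± 0.25 (SE, adjusted p = 3.19e-07). In SJCRH30 the arrays read 2.90, 2.98 and 2.84 before and 5.05, 5.76 and 5.08 after, a rise of 2.39 ± 0.22 (adjusted p = 1.22e-05). The states did not overlap in either line. IFI44 went from 4.66, 4.14 and 3.54 to 7.69, 7.66, 7.80, 7.85 and 7.90 in Rh41 (3.66 ± 0.20, adjusted p = 6.87e-07), and from 6.07, 5.83 and 5.93 to 8.30, 8.61 and 8.54 in SJCRH30 (2.54 ± 0.19, adjusted p = 2.1e-06). NCI-H520 showed neither rise, with overlapping arrays and changes of -0.25 ± 0.22 for IFI44L and -0.14 ± 0.24 for IFI44.

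The IFIT proteins bind foreign RNA by its 5′ end, and all 4 members measured rose in Rh41 while 0 of 4 passed the threshold by limma in either other line (at an unadjusted p under 0.05, 1 was higher in NCI-H520 and 0 in SJCRH30). IFIT1 was 3.10, 3.56 and 3.43 in parental Rh41 and 7.48, 7.68, 7.74, 7.86 and 8.47 in resistant Rh41 (4.49 ± 0.20, adjusted p = 1.36e-07). In SJCRH30 it read 3.16, 3.23 and 3.77 before and 3.32, 3.31 and 3.52 after, so that all 6 arrays were low and overlapped. IFIT3, which stabilizes IFIT1 on RNA, rose by 3.54 ± 0.28 in Rh41, IFIT5 by 1.48 ± 0.11 and IFIT2 by 1.42 ± 0.14 (largest adjusted p among them 5.31e-05). Outside Rh41 the changes of the family ran from -0.54 to 0.54.

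RNA helicases and sensors rose as a group in Rh41, 5 of 5. DDX60L, a helicase-like protein that restricts virus replication, stood at 3.59, 2.99 and 4.06 in parental and 7.39, 7.39, 7.37, 7.41 and 7.60 in resistant cultures (3.88 ± 0.19, adjusted p = 3e-07), and its neighbour DDX60 rose by 3.17 ± 0.13 (adjusted p = 9.91e-08). RIGI, the sensor of RNA with a 5′ triphosphate, was 4.88, 4.08 and 5.23 and then 7.06, 7.45, 7.66, 7.53 and 7.81 in Rh41 (2.77 ± 0.24, adjusted p = 1.85e-05). In NCI-H520 the same gene went the other way. There it read 6.12, 6.08 and 5.79 in the parental and 4.65, 4.70 and 4.87 in the resistant arrays, a fall of 1.26 on the log2 scale (SE 0.19, adjusted p = 0.000582), and in SJCRH30 the change was 0.01 ± 0.20. IFIH1, which encodes the long RNA sensor MDA5, rose by 0.65 ± 0.09 in Rh41 (adjusted p = 0.000652), but both its means there, 2.0 and 2.65, were at low signal. ZNFX1, a helicase that detects double-stranded RNA, rose in NCI-H520 from 4.76, 4.84 and 4.93 to 5.83, 6.10 and 6.34 (1.25 ± 0.20, adjusted p = 0.000825) and in Rh41 by 1.01 ± 0.15 (adjusted p = 0.000834).

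The OAS enzymes make short 2′-5′ linked oligoadenylates that switch on RNase L, and they gave the largest rise of the list in NCI-H520. OAS1 read 4.63, 5.09 and 5.34 in parental and 8.14, 8.15 and 8.89 in resistant NCI-H520 (3.37 ± 0.26, adjusted p = 4.51e-06). Its Rh41 arrays overlapped, at 3.66, 4.44 and 4.06 against 4.33, 4.68, 4.42, 4.42 and 4.80 (0.48 ± 0.17, adjusted p = 0.0749), and in SJCRH30 the change was 0.17 ± 0.21. OAS3 rose in NCI-H520, from 4.66, 5.31 and 4.79 to 6.10, 6.41 and 7.14 (1.63 ± 0.28, adjusted p = 0.0014), and in Rh41, by 0.83 ± 0.16 (adjusted p = 0.00426). OAS2 rose by 1.36 ± 0.25 in Rh41 alone of the 3 fits (adjusted p = 0.003), but both its means there, 3.3 and 4.66, were at low signal. After common quantile normalization, the OAS2 change in Rh41 did not differ past the threshold from that in NCI-H520 (0.45 ± 0.43, adjusted p = 0.507). Nor did it differ from that in SJCRH30 (1.09 ± 0.43, adjusted p = 0.0729). OASL, a family member without the enzyme activity, did not pass in any line. Its change in Rh41 (0.45 ± 0.14, adjusted p = 0.0398) was below 1.5-fold on the narrower deposited scale of that line.

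SAMD9 and SAMD9L are adjacent genes for cytosolic proteins that restrain translation and cell growth. SAMD9 rose in NCI-H520, where the parental arrays read 3.26, 4.30 and 3.90 and the resistant arrays 6.21, 6.79 and 6.62 (2.72 ± 0.27, adjusted p = 3.06e-05). It rose in Rh41 as well, from 4.13, 2.86 and 3.98 to 7.70, 7.66, 7.82, 7.60 and 8.22 (4.14 ± 0.26, adjusted p = 1.86e-06). In SJCRH30 the states overlapped, 5.59, 5.45 and 5.98 against 6.65, 6.60 and 5.44, with resistant array 3 at the level of the parental arrays (0.56 ± 0.30, adjusted p = 0.232). SAMD9L rose in SJCRH30, from 4.62, 4.37 and 3.68 to 5.41, 5.45 and 5.03 (1.07 ± 0.25, adjusted p = 0.00874), and in Rh41 by 1.04 ± 0.18 (adjusted p = 0.00243), and its change in NCI-H520 was 0.30 ± 0.28.

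**Figure D3:**
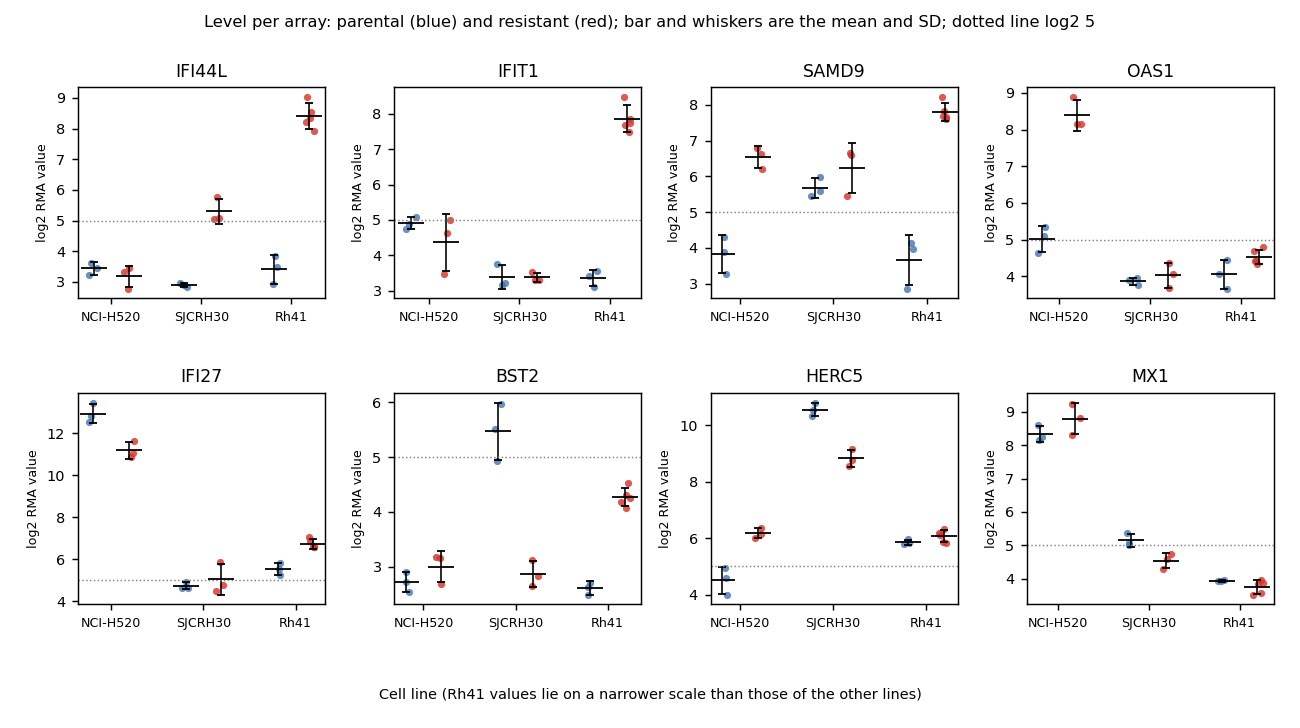
Points are the log2 RMA values of single arrays of 8 genes in the parental (blue) and resistant (red) state of each line, with mean and SD as bars and a dotted line at log2 5. IFI44L is raised in both rhabdomyosarcoma lines, OAS1 in NCI-H520, BST2 and HERC5 move in different directions in different lines, and the MX1 states stay close.

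ISG15 is a ubiquitin-like protein that HERC5 attaches to new proteins and USP18 removes, with USP18 also holding back receptor signalling. The modifier and the protease both rose in Rh41, ISG15 by 1.99 ± 0.14 (adjusted p = 5.65e-06) and USP18 from 2.98, 3.68 and 4.24 to 6.68, 6.60, 6.82, 6.85 and 7.13 (3.18 ± 0.23, adjusted p = 5.88e-06). USP18 fell in SJCRH30, where the arrays read 6.19, 6.04 and 6.13 and then 5.39, 5.32 and 5.06 (-0.86 ± 0.19, adjusted p = 0.00593). ISG15 rose slightly in SJCRH30, from 4.52, 4.50 and 4.72 to 5.33, 5.43 and 4.91 (0.65 ± 0.20, adjusted p = 0.0399), a call that did not hold when any 1 of 5 arrays was left out (changes of 0.54 to 0.72). HERC5 moved in opposite directions: it rose in NCI-H520 from 4.0, 4.60 and 4.94 to 6.37, 6.16 and 6.02 (1.67 ± 0.24, adjusted p = 0.000514) and fell in SJCRH30 from 10.80, 10.56 and 10.32 to 8.78, 8.55 and 9.16 (-1.73 ± 0.22, adjusted p = 0.000147). In Rh41 it read 5.82, 5.80 and 5.96 against 5.88, 5.84, 6.2, 6.11 and 6.32, and the states overlapped.

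Of 5 genes for membrane-associated proteins that were grouped together, 4 rose in Rh41. IFITM1 rose by 2.76 ± 0.19 (adjusted p = 4.09e-06) and IFITM3, which stops fusion in endosomes, by 1.64 ± 0.09 (adjusted p = 8.93e-07). IFITM3 also rose in SJCRH30, where it started high, from 14.68, 14.34 and 14.42 to 15.30, 15.34 and 14.89 (0.70 ± 0.20, adjusted p = 0.0284), and lost that call on leaving out any 1 of 4 arrays (changes of 0.62 to 0.66). BST2, the tether that holds budding virus at the cell surface, had the largest fall of the list in SJCRH30. Its arrays read 5.52, 5.97 and 4.93 in the parental and 3.13, 2.83 and 2.65 in the resistant state (-2.60 ± 0.26, adjusted p = 2.11e-05). In Rh41 BST2 rose, from 2.63, 2.49 and 2.71 to 4.18, 4.30, 4.26, 4.07 and 4.53 (1.66 ± 0.12, adjusted p = 4.58e-06), although both means were under 5. PLSCR1, a phospholipid scramblase, rose in NCI-H520 from 5.82, 7.53 and 6.86 to 9.16, 8.35 and 8.47 (1.92 ± 0.37, adjusted p = 0.00318) and in Rh41 by 1.15 ± 0.17 (adjusted p = 0.000837). RTP4, a chaperone of membrane receptors, did not pass in any of the 3.

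IFI6 and IFI27 encode small hydrophobic proteins of the mitochondrion and endoplasmic reticulum. IFI6 was already well expressed in parental Rh41, at 7.60, 7.73 and 8.0, and stood at 11.57, 11.74, 11.81, 11.74 and 12 in the resistant cultures (3.99 ± 0.13, adjusted p = 1.8e-08). Its changes elsewhere, 0.62 ± 0.32 in NCI-H520 and -0.90 ± 0.31 in SJCRH30, did not pass. IFI27 fell in NCI-H520 from 12.56, 12.83 and 13.46 to 11.05, 11.65 and 10.88 (-1.76 ± 0.27, adjusted p = 0.00076), remaining high. In Rh41 it rose from 5.51, 5.26 and 5.84 to 6.56, 6.57, 6.86, 6.61 and 7.05 (1.19 ± 0.16, adjusted p = 0.000356). Neither pair of states overlapped.

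The PARP9 and DTX3L proteins form a complex with ADP-ribosyl and ubiquitin ligase activity, and PARP14 is a related ADP-ribosyltransferase. PARP9 fell in SJCRH30 from 8.29, 8.49 and 8.92 to 6.77, 6.98 and 7.36 (-1.53 ± 0.23, adjusted p = 0.000464) and rose in Rh41 from 6.90, 6.69 and 6.96 to 7.84, 8.08, 7.96, 7.92 and 8.32 (1.18 ± 0.12, adjusted p = 8.56e-05). DTX3L fell in NCI-H520 from 7.21, 7.41 and 7.49 to 6.18, 6.52 and 6.63 (-0.93 ± 0.20, adjusted p = 0.0054) and rose in Rh41 from 5.44, 5.15 and 5.67 to 6.97, 6.88, 6.95, 6.93 and 7.33 (1.60 ± 0.14, adjusted p = 2.26e-05). Both partners rose in Rh41. In NCI-H520 PARP9 changed by nearly as much as DTX3L, from 8.36, 9.32 and 8.61 to 8.22, 7.90 and 7.86 without overlap (-0.77 ± 0.25, adjusted p = 0.0513), and its change there did not differ past the threshold from that in SJCRH30 (0.76 ± 0.35, adjusted p = 0.143). PARP14 fell in both other lines, in NCI-H520 from 9.87, 10.08 and 9.58 to 8.16, 8.99 and 8.58 (-1.26 ± 0.24, adjusted p = 0.00278) and in SJCRH30 from 5.25, 4.83 and 5.06 to 3.66, 3.95 and 4.28 (-1.08 ± 0.21, adjusted p = 0.00328). It was the single gene of the list that fell in 2 lines, and in Rh41 its change was 0.53 ± 0.24.

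Among the remaining genes, the transcriptional coregulator gene SP110 rose in Rh41 by 3.15 ± 0.20 (adjusted p = 1.89e-06), the mitochondrial nucleotide kinase gene CMPK2 by 1.76 ± 0.16, the secreted glycoprotein gene LGALS3BP by 1.52 ± 0.11, the helicase gene HELZ2 by 1.07 ± 0.15, and RSAD2, which encodes viperin, the maker of a chain-terminating nucleotide, by 0.76 ± 0.16. None of these 5 passed in the other lines. The 13 genes past the threshold in no line were MX1, MX2, OASL, ISG20, HERC6, XAF1, EPSTI1, PARP10, PARP12, RTP4, LAMP3, NMI and IFI35. MX1, the GTPase that traps viral ribonucleoprotein, read 3.93, 3.93 and 3.98 in parental and 3.57, 3.89, 3.53, 3.84 and 3.97 in resistant Rh41, so that all 8 arrays were low while most of the list rose. In NCI-H520 it was well expressed in both states, at 8.16, 8.25 and 8.61 against 9.24, 8.82 and 8.30.

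Sorting the 46 genes by their calls in the 3 lines showed that no gene rose in all 3. There were 15 that rose in Rh41 and were called nowhere else, 5 that rose in SJCRH30 and Rh41 (IFI44L, IFI44, ISG15, SAMD9L and IFITM3) and 4 that rose in NCI-H520 and Rh41 (OAS3, SAMD9, PLSCR1 and ZNFX1). Opposite calls were found for 7: IFI27, RIGI and DTX3L fell in NCI-H520 and rose in Rh41, USP18, BST2 and PARP9 fell in SJCRH30 and rose in Rh41, and HERC5 rose in NCI-H520 and fell in SJCRH30. No gene rose in both NCI-H520 and SJCRH30. The shares of all clusters with these patterns were not counted. Whether shared or opposite calls were more frequent than the calls of each line alone would give was not tested.

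**Figure D4:**
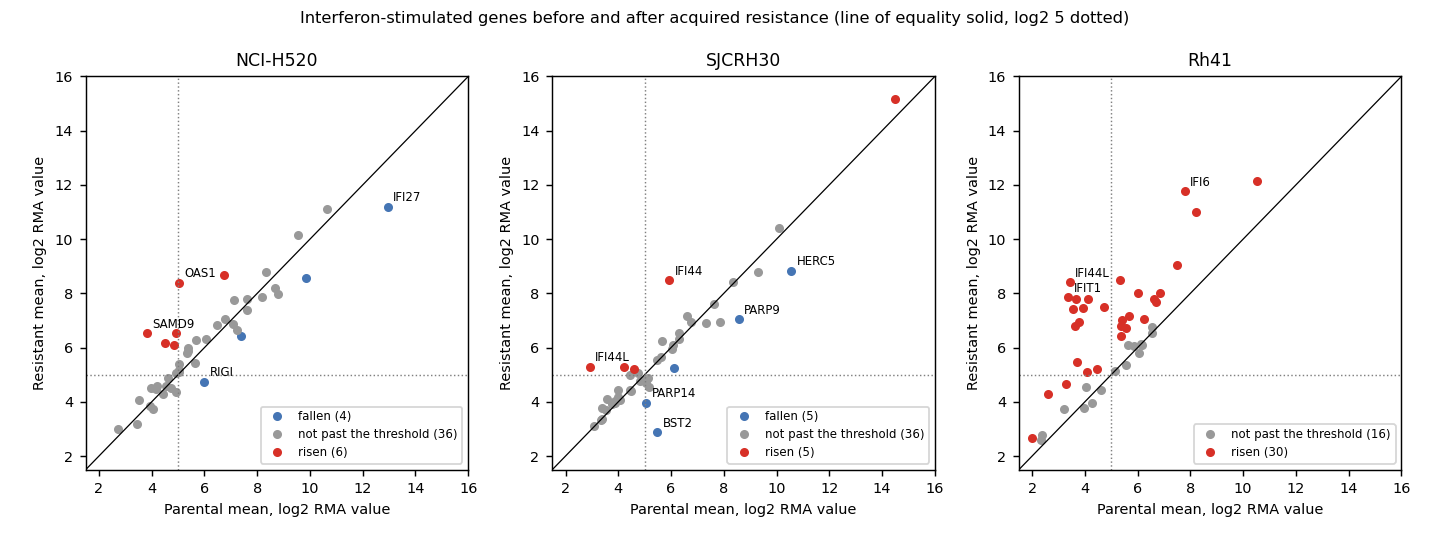
Each point is a gene, with its parental mean on the horizontal and its resistant mean on the vertical axis (log2 RMA values), in 1 panel per line; red points rose, blue points fell and grey points did not pass. In Rh41 30 points lie above the line of equality in red, 15 of them left of a parental mean of 5, and in the other lines most points follow the line.

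Differences between lines were tested directly. The change in NCI-H520 differed from that in SJCRH30 for 16 genes, beside 23.1% of all clusters, with 11 higher in NCI-H520 and 5 lower. The largest were HERC5 (3.40 ± 0.34, adjusted p = 1.15e-06), OAS1 (3.20 ± 0.35, adjusted p = 2.88e-06) and BST2 (2.88 ± 0.35, adjusted p = 9.19e-06) in 1 direction, and IFI44 (-2.69 ± 0.31, adjusted p = 5.26e-06) and IFI44L (-2.65 ± 0.32, adjusted p = 1.01e-05) in the other. For SAMD9L, called in SJCRH30 alone of these lines, the difference did not pass (-0.77 ± 0.40, adjusted p = 0.2), nor did it for ISG15 (-0.27 ± 0.30) or IFITM3 (-0.22 ± 0.26). Rh41 was set against the other lines after all 20 arrays were brought to 1 distribution by quantile normalization. On that scale the change in Rh41 was higher than in NCI-H520 for 25 genes and lower for 3 (OAS1, HERC5 and XAF1), beside 13.2% and 11.9% of all clusters. Against SJCRH30 it was higher for 28 and lower for 0 (0 also at an unadjusted p under 0.05), beside 12% and 10% of all clusters. IFI44L differed from SJCRH30 by 3.61 ± 0.41 (adjusted p = 7.13e-07) although it rose in both. These contrasts share the Rh41 arrays, and an effect of the separate scale of Rh41 and an effect of the line cannot be told apart in them.

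The parental lines themselves expressed different parts of the list. Parental SJCRH30 was higher than parental NCI-H520 for 9 genes and lower for 18, beside 22.2% and 22.1% of all clusters. IFITM3 averaged 14.48 ± 0.18 (SD, n = 3) in SJCRH30 and 5.39 ± 0.17 in NCI-H520 (difference 9.09 ± 0.19, SE), HERC5 averaged 10.56 ± 0.24 and 4.51 ± 0.47 (6.05 ± 0.24), and IFITM1 differed by 3.60 ± 0.19. In the other direction IFI27 averaged 4.73 ± 0.17 in SJCRH30 and 12.95 ± 0.46 in NCI-H520 (-8.21 ± 0.32), IFIH1 averaged 3.34 and 8.66, PARP14 5.05 and 9.84, and MX1 5.15 and 8.34. Rh41 levels are on their own scale and were not compared.

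Many of the genes are chromosomal neighbours. Among 13 neighbouring pairs no more than 100000 bases apart (23 genes), both genes rose in Rh41 in 10, 1 of the genes in 1 (OAS1 and OAS3), and neither in 2 (MX1 and MX2, HERC5 and HERC6). The calls of neighbours were the same in 9 of the 13 pairs in NCI-H520 and in 9 of 13 in SJCRH30, counting pairs in which neither passed. In each of these 2 lines 36 of the 46 genes did not pass, and in Rh41 65.2% of the list rose. How often genes of the list that are not neighbours shared a call was not counted, so these counts are not read as agreement between neighbours. Among the pairs with different calls, SAMD9 rose in NCI-H520 by 2.72 with SAMD9L at 0.30, 12076 bases away, and HERC5 moved by 1.67 in NCI-H520 and -1.73 in SJCRH30 with HERC6 at 0.31 and 0.19, 14021 bases away. IFI44L and IFI44, 3643 bases apart, changed by similar amounts in SJCRH30 (2.39 and 2.54). PARP9 and DTX3L, read in opposite directions, overlap by 447 bases and share the response element match at chr3:122564332-122564341, yet in SJCRH30 the first fell by 1.53 on the log2 scale and the second changed by 0.01.

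Transcripts of the interferons themselves were mostly at low signal. Of 20 ligand genes measured, 0 passed the threshold in any line by limma. At an unadjusted p under 0.05, 1 was higher in NCI-H520, 0 differed in SJCRH30 and 1 was lower in Rh41. Of the 20, 19 had means under 5 in both states of NCI-H520, 18 did in SJCRH30, and Rh41 had 17. IFNB1 changed by -0.16 ± 0.18, -0.01 ± 0.22 and -0.08 ± 0.17 in the same order. Ligand from transcripts at such a level, or from another source, was not measured. Of 9 receptors and Janus kinases, 2 rose and 1 fell in Rh41, 1 rose in NCI-H520 and 1 fell in SJCRH30. JAK1 rose in Rh41 (1.20 ± 0.09, adjusted p = 1.02e-05), as did JAK2 (0.71 ± 0.15, adjusted p = 0.00575), while IFNGR2, a chain of the interferon-gamma receptor, fell there (-0.59 ± 0.09, adjusted p = 0.000782). Its partner chain IFNGR1 rose in NCI-H520 (0.79 ± 0.21, adjusted p = 0.0175), and IFNAR1 fell in SJCRH30 (-0.64 ± 0.20, adjusted p = 0.0436). TYK2 did not pass in any line. IFNAR2 changed by -0.53 ± 0.10 in Rh41, past the adjusted p but under 1.5-fold.

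IRF9, the DNA-binding part of that transcription factor complex, rose in both rhabdomyosarcoma lines and fell in NCI-H520. In Rh41 it went from 5.79, 5.66 and 6.40 to 8.65, 8.96, 9.01, 9.06 and 9.08 (3.00 ± 0.17, adjusted p = 7.78e-07) and in SJCRH30 from 6.45, 6.52 and 6.0 to 7.15, 7.93 and 7.29 (1.13 ± 0.24, adjusted p = 0.0052). In NCI-H520 it went from 8.19, 8.32 and 8.87 to 7.51, 7.05 and 7.53 (-1.10 ± 0.23, adjusted p = 0.00548). IRF1 rose in Rh41 (1.51 ± 0.17, adjusted p = 0.000111) and fell in NCI-H520 (-0.76 ± 0.22, adjusted p = 0.0303). IRF7, which amplifies interferon production, passed in no line (changes of 0.18, -0.27 and -0.13 in the order NCI-H520, SJCRH30, Rh41).

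**Figure D5:**
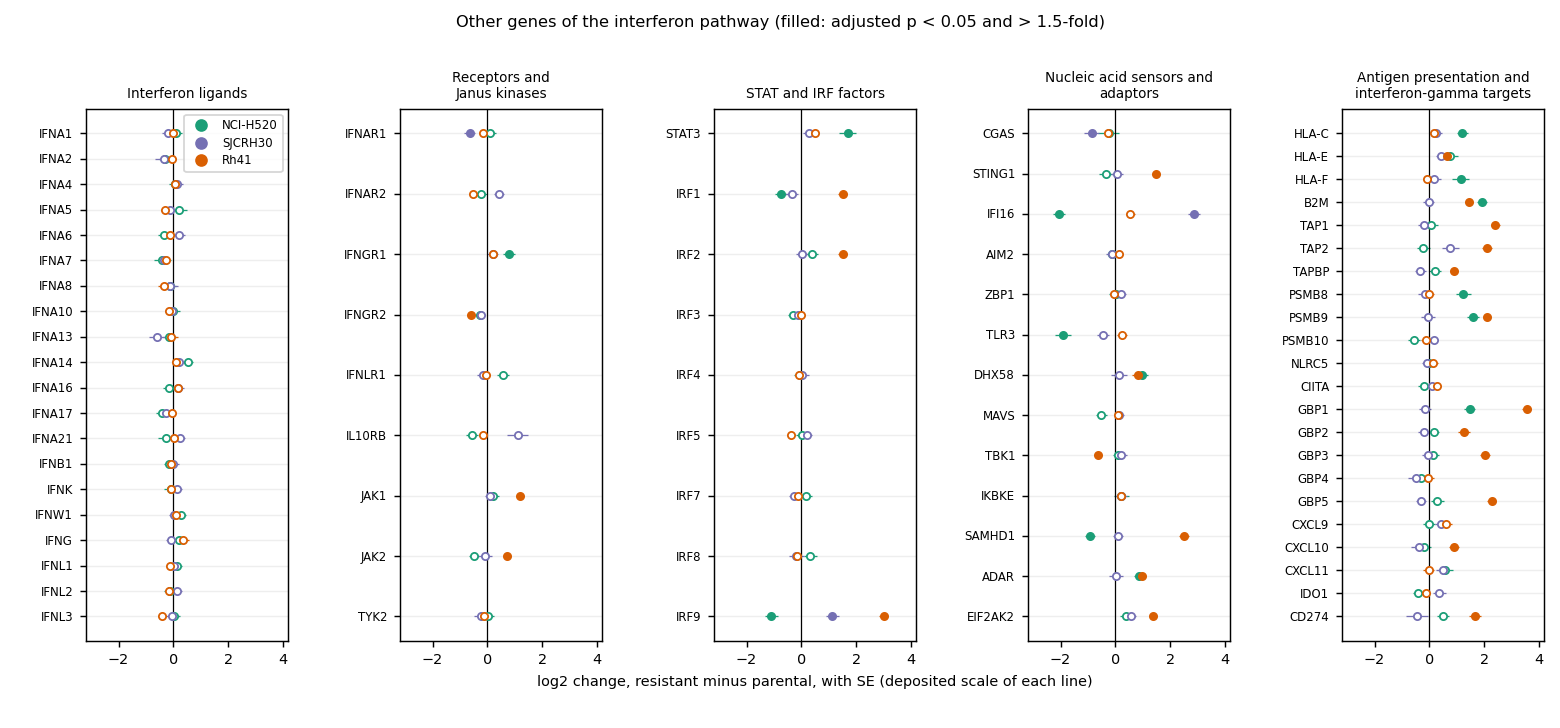
Points are the log2 changes (resistant minus parental, with SE, deposited scale of each line) of other genes of the pathway in NCI-H520 (green), SJCRH30 (purple) and Rh41 (orange), filled where past the threshold. The ligands lie along 0 with no filled point, and filled orange points stand to the right for IRF9, SAMHD1, GBP1 and other antigen presentation genes.

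Nucleic acid sensors and adaptors outside the list were 13 measured genes, of which 5 rose and 1 fell in Rh41, 2 rose and 3 fell in NCI-H520, and 1 rose and 1 fell in SJCRH30. In Rh41 these rises were of SAMHD1, which degrades deoxynucleotides (2.50 ± 0.17), STING1, the adaptor of cGAS (1.47 ± 0.11), the RNA-activated kinase gene EIF2AK2 (1.38 ± 0.15), the RNA editor gene ADAR (0.96 ± 0.16) and DHX58 (0.83 ± 0.22), and TBK1 fell (-0.63 ± 0.10). CGAS fell in SJCRH30 (-0.87 ± 0.28, adjusted p = 0.0448) and did not pass elsewhere. IFI16, a nuclear DNA sensor, rose in SJCRH30 from 8.07, 7.49 and 7.99 to 10.76, 10.43 and 10.93 (2.86 ± 0.22, adjusted p = 2.64e-06) and fell in NCI-H520 (-2.06 ± 0.23, adjusted p = 6.41e-05). Of 22 genes of antigen presentation and of the interferon-gamma response, 12 rose in Rh41, 6 in NCI-H520 and 0 in SJCRH30, and 0 fell by limma (at an unadjusted p under 0.05, 2 were higher in SJCRH30, and 1 was lower in NCI-H520). GBP1, a GTPase induced mostly by interferon-gamma, rose by 3.55 ± 0.17 in Rh41 and 1.48 ± 0.20 in NCI-H520, and B2M, the light chain of class I molecules, by 1.45 ± 0.10 and 1.91 ± 0.19. TAP1, the peptide transporter, rose in Rh41 only among the 3 fits (2.41 ± 0.17).

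Markers of cells that could carry interferon-stimulated transcripts of their own were compared in the same arrays. Of 7 leukocyte markers 1 rose in Rh41 (CD68, 0.71 ± 0.15) and none in the other lines. The sum of their log2 values, taken per array, was 32.7 to 33.9 in parental and 32.3 to 33.7 in resistant Rh41 cultures. In NCI-H520 the leukocyte sums were 34.0 to 35.3 in parental and 35.5 to 36.9 in resistant arrays, without overlap. Single leukocyte markers there changed by 0.01 to 0.42, 3 of the 7 were under 5 in both states, and 0 were higher at an unadjusted p under 0.05 by limma. In SJCRH30, whose lines had passed through a mouse, the leukocyte sums were 32.0 to 34.0 and 33.6 to 35.0. There 1 of 5 fibroblast markers rose (THY1, 2.71 ± 0.26). The fibroblast sums in SJCRH30 were 29.2 to 30.2 and 32.1 to 32.9, without overlap, while the median change of the 5 markers was 0.02. In Rh41 1 of the 5 rose (PDGFRB, 1.09 ± 0.13) and 1 fell (PDGFRA, -1.55 ± 0.16), with sums of 24.0 to 25.8 in parental and 23.7 to 25.2 in resistant cultures. Of 4 endothelial markers 0 passed in any line by limma (0 also at an unadjusted p under 0.05). Of 3 plasmacytoid dendritic markers 1 fell in NCI-H520. Of 9 muscle markers 4 rose and 1 fell in Rh41 and 2 rose and 2 fell in SJCRH30. The sums of the muscle markers were 69.7 to 70.4 in parental and 74.9 to 76.1 in resistant Rh41. In SJCRH30 the muscle sums were 89.9 to 91.5 and 91.1 to 91.3, and in NCI-H520 40.6 to 43.5 and 40.1 to 41.0, with overlap in both lines. The part of any of these markers in the changes of the interferon-stimulated genes was not tested. In RNA from whole cultures, more cells expressing a gene and more RNA per cell cannot be told apart.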

How the data were processed

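Biotin-labelled targets made from total RNA were read on Clariom S arrays of Affymetrix. The authors deposited log2 values computed by RMA, with no version given in the sources used here. The 8 Rh41 arrays follow another distribution of values than the other 12 (SD 1.99 against 2.99). That they were normalized apart is inferred from this difference only. Of 21448 transcript clusters, 17709 with exactly 1 symbol in the platform annotation were tested and 3739 were left out. A separate limma model (version 3.58.1, under R 4.3.3) was used for every line, with empirical Bayes moderation, two-sided tests and Benjamini-Hochberg adjustment over every cluster tested. A gene passed at an adjusted p under 0.05 and more than 1.5-fold. The 12 arrays of NCI-H520 and SJCRH30 were fitted together for differences between these lines, and all 20 arrays after common quantile normalization for Rh41 against them. Low signal was a mean under 5 on the deposited scale. Arrays of a group carry biological replicate numbers per the labels, and p-values measure the spread between these cultures, whose number limits the precision.

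The 46 genes and all lists were chosen with earlier results of these data known. Values array by array were given for the 6 largest rises and 4 largest falls per line among genes past the threshold whose states did not overlap, and for genes called in opposite directions. Pathway genes were named up to 4 rises and 2 falls per list and line, beside a fixed set, and promoter stretches for the largest rise with a match in each role group, at most 8. A few further genes were named after their values were seen. Promoter windows came from RefSeq (GRCh38.p14). The fits were tested on simulated data. Alternatives were fold thresholds, a filter on low values, common normalization, all clusters, another variance model, 1 fit of all groups, a replicate block and leaving out each array. Figures were drawn with matplotlib 3.10.9 in Python 3.11.15.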

Additional observations from a re-analysis of the deposited data

Results flagged for a closer look

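Of 46 genes in the 5 resistant Rh41 cultures, 5 had a single culture far from the others by Dixon's test, which chance alone gives in about 1 in 20 groups. Culture 5 was high for SAMD9L (5.67, the others 4.90 to 5.07), DTX3L (7.33, the others 6.88 to 6.97) and DDX60L (7.60, the others 7.37 to 7.41). Culture 3 was high for EPSTI1 (3.27, the others 2.32 to 2.57) and culture 2 low for OASL (5.87, the others 6.14 to 6.17). Culture 5 also had the highest median of the list, 1.49. Without it, as without any other Rh41 array, 0 of the 30 calls in Rh41 were lost.

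The resistance change differed between NCI-H520 and SJCRH30 by the test of the difference itself for 16 genes. It was higher in NCI-H520 for HERC5 (3.40), OAS1 (3.20), BST2 (2.88), SAMD9 (2.16), PLSCR1 (1.86), OAS3 (1.60), IFI6 (1.52), USP18 (1.48), ZNFX1 (1.28), MX1 (1.05) and LGALS3BP (0.98). It was lower for IFI44 (-2.69), IFI44L (-2.65), IFI27 (-2.08), RIGI (-1.26) and DTX3L (-0.94). MX1, IFI6 and LGALS3BP passed this test although they passed in neither line alone. Their differences, and that of DTX3L, lost the call on leaving out single arrays: IFI6 for 8 arrays (1.26 to 1.51), MX1 for 6 (0.82 to 1.03), LGALS3BP for 6 (0.69 to 0.98) and DTX3L for 5 (-0.92 to -0.75).

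Genes called in opposite directions in Rh41 and another line were flagged on the common scale. Against NCI-H520 the change in Rh41 was higher by 3.21 for IFI27, 4.97 for RIGI and 3.13 for DTX3L, and against SJCRH30 by 4.41 for USP18, 4.15 for BST2 and 3.05 for PARP9.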

How the results depend on the processing

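No called change reversed its sign under any alternative run. The count of genes risen in SJCRH30 was 3 at more than 2-fold, in place of 5, and 3 to 6 on leaving out single arrays (fallen 5 to 6); the lost calls were ISG15 and IFITM3. On leaving out single arrays NCI-H520 gave 6 to 7 risen and 4 to 5 fallen genes, Rh41 30 to 32 risen and 0 fallen, the difference between NCI-H520 and SJCRH30 13 to 16 genes, the parental comparison 24 to 27, and Rh41 23 to 25 genes higher than NCI-H520 and 28 to 29 higher than SJCRH30. The median change in Rh41 was 1.54 after common quantile normalization and 1.45 with a mean of at least 5 required in a state, and 1.10 to 1.25 without single arrays (0.12 to 0.30 in NCI-H520, 0.01 to 0.10 in SJCRH30). That filter removed the 3 rises at low signal, leaving 27. With the replicate number of the labels as a block, 30 genes rose in Rh41, 6 in NCI-H520 and 4 in SJCRH30, where 6 fell. Same-numbered arrays did not deviate together in every pair (correlations of -0.178 to 0.276), so the numbers were not taken as pairs, although in NCI-H520 every array correlated best with its own number, a hint from the data only. With a spacer of 1 to 3 bases, 35 of 38 genes (92.1%) held the response element, beside 9.94% of tested genes.

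Limits are the 3 to 5 arrays of a state, the low signal of many starting levels, the separate scale of Rh41, and single resistant lines in NCI-H520 and SJCRH30.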

Other observations

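SLFN11, an interferon-inducible gene whose product blocks stressed replication forks, took opposite directions in the lines in which it was expressed. It read 6.03, 5.06 and 5.58 in parental and 7.71, 7.91 and 6.93 in resistant NCI-H520 (1.96 ± 0.30, adjusted p = 0.00065). In SJCRH30 it read 6.56, 6.14 and 6.33 and then 5.04, 4.91 and 5.05 (-1.34 ± 0.19, adjusted p = 0.000352). The states did not overlap in either line, and the difference between the changes was 3.31 ± 0.37 (adjusted p = 4.14e-06). All 8 Rh41 arrays were at low signal, between 2.41 and 2.93. HERC5 of the main list had the same order of directions, risen in NCI-H520 and fallen in SJCRH30.

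The brakes on interferon signalling outside the list included PIAS1 (0.89 ± 0.22) and PTPN1 (0.87 ± 0.17), which rose in NCI-H520, and PTPN2 (-0.92 ± 0.20), which fell there. STAT3 rose in NCI-H520 by 1.70 ± 0.31 (adjusted p = 0.00221) and IRF2 in Rh41 by 1.51 ± 0.17 (adjusted p = 0.000142).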
